A study of Mus musculus with 4 samples.

Results

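TGF-beta is a secreted cytokine that restrains natural killer (NK) cells, the cytotoxic members of the innate lymphocytes. The transcripts described here are those of its ligand Tgfb1, its receptors Tgfbr1, Tgfbr2 and Tgfbr3, and the signalling factors Smad2, Smad3, Smad4 and Smad7, chosen by name as the core of the pathway. They were 8 of the 26611 genes in the count table, and all 8 passed the filter on low counts, which left 12723 genes. The study compared Tcf7 knock-out (KO) mice with wild-type (WT) mice, 2 animals each and 1 RNA library per animal, all of the C57BL/6 background. Tcf7 encodes the transcription factor Tcf-1, and the labels do not name the knock-out allele, age or treatment. Mature NK cells were sorted from spleen as negative for TCRbeta and positive for NK1.1, NKp46, CD11b and KLRG1. The sort thus selected for cells with these surface proteins in either genotype. Markers of other cell types were also detected, as given below.

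As background, the ligand binds a pair of kinase receptors: Tgfbr2 captures it and switches on Tgfbr1, which phosphorylates Smad2 and Smad3. These join Smad4 and enter the nucleus to control genes. Tgfbr3 (betaglycan) presents ligand to Tgfbr2, and Smad7 is an inhibitor, itself induced by the pathway, that blocks the receptor. In mouse NK cells TGF-beta signalling is known to limit proliferation, cytotoxicity and interferon gamma production, and to favour features of tissue-resident innate lymphoid cells.

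The libraries held 28254693 and 37384979 counts from KO mice and 31860505 and 40175537 counts from WT mice. Levels are CPM (counts scaled to the library total) after TMM scaling, and, where genes are compared with each other, CPM per kilobase of the deposited gene length (FPKM). The deleted gene, Tcf7, stood at 11.2 and 25.0 CPM in KO libraries 1 and 2, against 89.5 and 79.1 CPM in WT libraries 1 and 2. The counts do not show which exons the remaining KO reads came from. The 12 NK cell markers were detected in every library and summed to 41400 and 35900 CPM in KO libraries and 39400 and 34600 CPM in WT libraries. Much of each sum was Gzma alone (20500 and 11900 CPM in KO, 17500 and 12300 CPM in WT). Of the 12 markers, 6 were higher and 4 lower in both libraries numbered 2, as were 34.6% and 33.2% of all genes tested. On the first principal component, with 71.1% of the variance, the libraries parted by the replicate number in the labels and not by genotype. On the second, with 22% of the variance, they parted by genotype (-15.7 and -24.8 in KO libraries, 24.2 and 16.3 in WT libraries). The labels give no meaning to the replicate number beyond naming the animal.

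No member passed a test of the difference between genotypes, edgeR's quasi-likelihood test with Benjamini-Hochberg adjustment over all genes. At an adjusted p under 0.05 it called 0 of 8 members and 0% of all genes tested. At an unadjusted p under 0.05 it held 0 of 8 members and 2.84% of all genes (361 of 12723). DESeq2 called 0 of 8 members and 0.558% of all genes (71), and limma voom called 0 members and 0 genes. The deleted gene Tcf7 itself had a log2 fold change of -2.22 (edgeR unadjusted p = 0.00607). DESeq2 called Tcf7 (DESeq2 adjusted p = 0.00216), but edgeR and voom did not. The median log2 fold change, KO minus WT, was -0.06 over the members, with a range of -0.13 to 0.65, and -0.01 over all genes tested. Of the members 3 lay above and 5 below 0, where 48.2% of all genes lay above and 51.8% below. An exact permutation test cannot go below p = 0.333 with these 4 libraries. The model's p-values therefore rest on a spread shared across genes, and missing the threshold is no proof of equal levels.

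The 250 bases upstream of the annotated start are shown for 1 member that was steady across libraries, Tgfbr1, and 1 that was not, Smad3, because the deleted factor binds DNA. They come from RefSeq (GRCm38.p6, the assembly also called mm10). Promoter windows of 4 members were examined: Tgfb1, Tgfbr1, Tgfbr2 and Smad3. Those of the remaining members were not examined, so the matches below say nothing about them. The windows lie at chr4:47352972-47353221 (plus strand) for Tgfbr1 and at chr9:63757995-63758244 (minus strand) for Smad3. Capitals mark a match to the Tcf/Lef core written as CTTTGA or CTTTGT, on either strand.
Tgfbr1: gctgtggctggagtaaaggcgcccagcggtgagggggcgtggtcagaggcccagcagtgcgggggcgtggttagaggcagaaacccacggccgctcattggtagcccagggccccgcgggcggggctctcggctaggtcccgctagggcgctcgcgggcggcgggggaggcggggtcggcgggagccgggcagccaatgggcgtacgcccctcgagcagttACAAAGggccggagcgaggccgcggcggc
Smad3: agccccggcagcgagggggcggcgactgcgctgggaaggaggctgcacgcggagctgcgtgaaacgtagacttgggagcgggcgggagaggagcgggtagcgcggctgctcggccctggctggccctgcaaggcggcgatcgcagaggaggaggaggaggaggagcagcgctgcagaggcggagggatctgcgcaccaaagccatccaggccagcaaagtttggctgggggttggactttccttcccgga
The Tgfbr1 window shown held 1 match, on the opposite strand, whose first base lay 29 bases before the start. A second annotated Tgfbr1 start, with its window at chr4:47385966-47386215 (not shown), also had 1 match, 22 bases before it. The windows of Smad3, Tgfb1 and Tgfbr2 held 0. Of 32851 promoter windows of this length, 27.6% held at least 1 match, so a match is common, and neither a match nor its absence says whether the factor binds there.

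The ligand gene Tgfb1 (Entrez gene 21803; chromosome 7, 25687002 to 25705077) stood at 110 and 283 CPM in KO libraries 1 and 2, against 141 and 259 CPM in WT libraries 1 and 2. The WT values lay inside the range of the KO values. The mean was 196 ± 122 CPM in KO and 200 ± 83.5 CPM in WT (SD, n = 2 each). This is a log2 fold change of -0.03 (SE 0.56, edgeR adjusted p = 1), and its 95% interval ran from 0.346-fold to 2.79-fold. With 2 libraries per genotype, the data do not tell apart folds inside that interval. Library 2 exceeded library 1 by 2.57-fold in KO and 1.84-fold in WT.

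Of the receptors, Tgfbr1 (chromosome 4, 47353222 to 47414926), the kinase that phosphorylates Smads, was among the steadiest members. It stood at 81.8 and 81.4 CPM in KO libraries, against 74.7 and 82.5 CPM in WT libraries. Both KO values fell within the WT range. The log2 fold change was 0.05 (SE 0.20, edgeR adjusted p = 1), with a 95% interval of 0.724-fold to 1.49-fold.

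Tgfbr2 (chromosome 9, 116087695 to 116175363), the ligand-binding kinase, stood at 211 and 309 CPM in KO libraries 1 and 2, against 235 and 318 CPM in WT libraries 1 and 2. Each KO library was slightly below the WT library of the same number, and the groups overlapped. The mean was 260 ± 69.7 CPM in KO and 277 ± 59.0 CPM in WT (SD, n = 2 each), with a log2 fold change of -0.09 (SE 0.30, edgeR adjusted p = 1) and a 95% interval of 0.542-fold to 1.63-fold. Per length, Tgfbr2 exceeded Tgfbr1 in every library, by 3.05- and 4.49-fold in KO and 3.72- and 4.57-fold in WT.

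Tgfbr3 (chromosome 5, 107106567 to 107289629), the co-receptor, had the lowest level of the members and, with all 4 libraries, the largest fold change. Its raw counts were 133 and 294 in KO libraries and 94 and 204 in WT libraries, or 4.53 and 8.16 CPM in KO against 2.89 and 5.19 CPM in WT. KO library 1 lay below WT library 2, so the groups overlapped. Each KO library lay above the WT library of the same number, with log2 ratios (CPM plus 0.5) of 0.57 for library 1 and 0.60 for library 2. Its log2 fold change of 0.65 (SE 0.48) had a 95% interval of 0.644-fold to 3.82-fold (edgeR unadjusted p = 0.242, adjusted p = 1). With 1 library left out the log2 fold change ran from 0.20 (without KO library 2) to 1.15 (without WT library 2). Being the member with the smallest p, Tgfbr3 was set against 8954 other genes of at least 5 CPM by the distance of centred log2 levels over the 4 libraries. The nearest were Themis2 (0.121), Parp3 (0.189), Llgl2 (0.200), Entpd1 (0.202) and Ccnd2 (0.225). Over 4 libraries such likeness is a description only.

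Among the Smads, Smad2 (chromosome 18, 76241090 to 76311748), a receptor-activated Smad, was nearly flat at 91.0 and 88.7 CPM in KO libraries, against 89.0 and 90.4 CPM in WT libraries. Its log2 fold change was 0.00 (SE 0.19, edgeR adjusted p = 1), with a 95% interval of 0.708-fold to 1.42-fold. Smad4 (chromosome 18, 73634790 to 73703791), the shared partner, stood at 156 and 164 CPM in KO libraries, against 165 and 181 CPM in WT libraries. It was the 1 member whose groups did not overlap, with both KO libraries just below both WT libraries, an arrangement that 21.2% of all genes tested had in either direction and 11.6% in this direction. In 0 members both KO libraries lay above, as in 9.64% of all genes. The log2 fold change of Smad4 was -0.11 (SE 0.19, edgeR unadjusted p = 0.591, adjusted p = 1), with a 95% interval of 0.654-fold to 1.31-fold.

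Smad3 (chromosome 9, 63646766 to 63757994), the other receptor-activated Smad, stood at 314 and 729 CPM in KO libraries 1 and 2, against 445 and 680 CPM in WT libraries 1 and 2. The KO libraries gave both the lowest and the highest value. The mean was 522 ± 294 CPM in KO and 562 ± 166 CPM in WT (SD, n = 2 each), and the log2 fold change was -0.11 (SE 0.49, edgeR adjusted p = 1), with a 95% interval of 0.378-fold to 2.28-fold.

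Smad7 (chromosome 18, 75367365 to 75395935), the inhibitory Smad, stood at 17.9 and 50.9 CPM in KO libraries 1 and 2, against 26.2 and 49.1 CPM in WT libraries 1 and 2. Again the WT values lay inside the KO range. The log2 fold change was -0.13 (SE 0.61, edgeR adjusted p = 1), with a 95% interval of 0.295-fold to 2.83-fold. The direction of several members turned with the library left out. Without KO library 1, the log2 fold changes were 0.50 for Tgfb1, 0.16 for Tgfbr2, 0.38 for Smad3 and 0.44 for Smad7, and without WT library 2 they were 0.49, 0.16, 0.24 and 0.40. Without KO library 2 they were -0.83, -0.36, -0.81 and -1.04, and without WT library 1 they were -0.40, -0.30, -0.39 and -0.51, with an edgeR adjusted p of at least 0.749 in each of these fits.

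**Figure D1:**
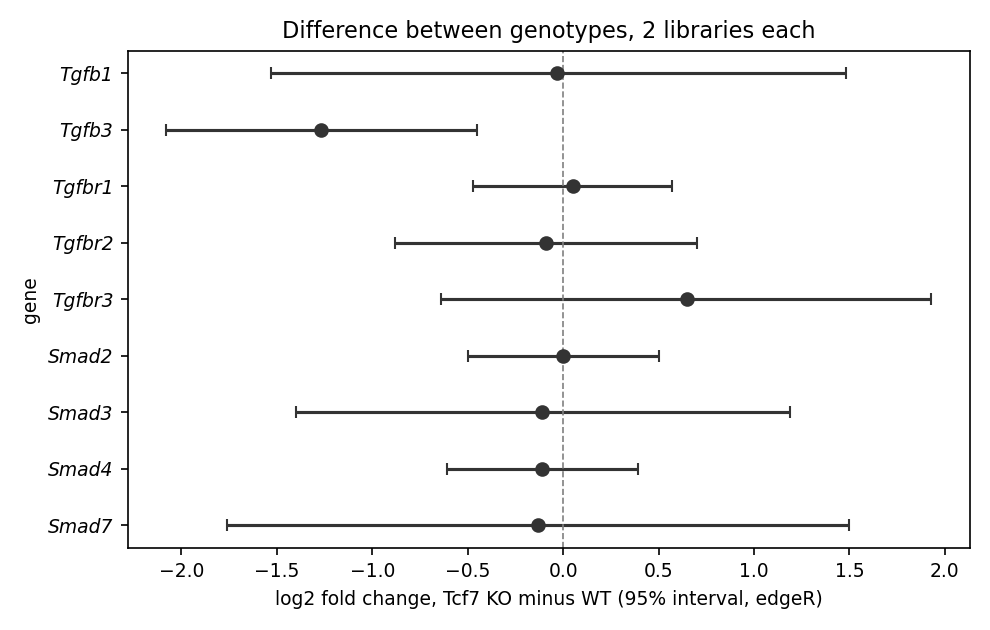
Log2 fold change, KO minus WT, of the 8 members and of Tgfb3 (points) with the 95% interval of edgeR for each single gene, not adjusted for the number of genes (bars, n = 2 libraries per genotype). The intervals of all 8 members span 0, from narrow for Smad2 (-0.50 to 0.50) to wide for Smad7 (-1.76 to 1.50), and that of Tgfb3 (-2.08 to -0.45) does not.

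Per length, the order of the members by mean FPKM over the 4 libraries was Smad3 (106), Tgfb1 (94.7), Tgfbr2 (56.0), Smad4 (49.8), Tgfbr1 (14.1), Smad2 (9.82), Smad7 (8.12) and Tgfbr3 (0.858). Smad3 ranked 798 and Tgfb1 ranked 915 among the 12723 genes tested. The ranges over libraries overlapped between Smad3 and Tgfb1, between Tgfb1 and Tgfbr2, between Tgfbr2 and Smad4, and between Smad2 and Smad7. The range of Tgfbr1 (13.2 to 14.6 FPKM) overlapped with neither that of Smad4 (46.7 to 54.0) nor that of Smad2 (9.71 to 9.95). Between the receptor-activated Smads, Smad3 exceeded Smad2 per length in all 4 libraries, by 6.20- and 14.8-fold in KO and 8.98- and 13.5-fold in WT. Its excess over Tgfb1 was small in each library, 1.17- and 1.06-fold in KO and 1.30- and 1.08-fold in WT.

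**Figure D2:**
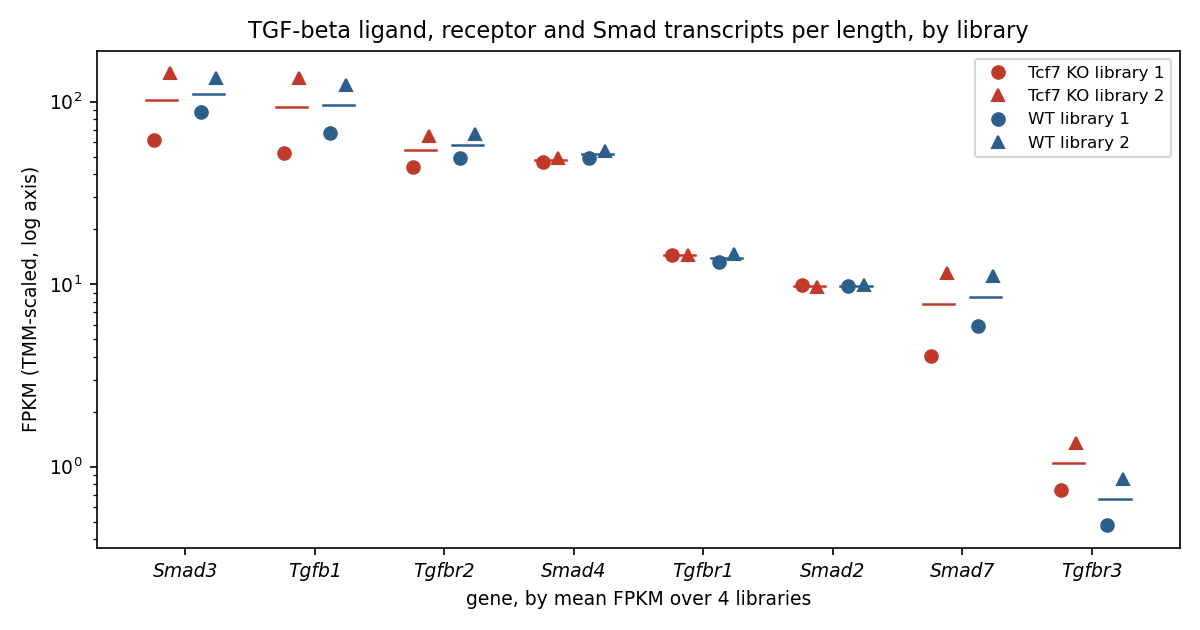
Level per length (FPKM, log axis) of each member in each library, with KO libraries left of WT libraries, circles for library 1, triangles for library 2 and a line at each genotype's mean (n = 2). The genotype means lie close together for every member except Tgfbr3 (1.05 FPKM in KO, 0.668 FPKM in WT), while the libraries of 1 genotype lie far apart for Smad3, Tgfb1 and Smad7.

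The members fell into 2 sets by how the libraries of 1 genotype differed. For 5 of 8 members (Tgfb1, Tgfbr2, Tgfbr3, Smad3 and Smad7) both libraries numbered 2 lay above both libraries numbered 1, an arrangement that 34.6% of all genes tested had. The opposite arrangement, in 33.2% of all genes, was seen in 0 members. Either arrangement held for 67.8% of all genes. Smad7 differed most between libraries of a genotype, 2.84-fold in KO and 1.87-fold in WT, and Smad3 differed 2.32-fold in KO and 1.53-fold in WT. For Tgfbr1, Smad2 and Smad4 the factor was 0.975 to 1.10. The median absolute log2 difference over the members was 0.66 between KO libraries, where that of all genes was 0.42. The libraries numbered 2 were also the deeper ones in each genotype, and the part of depth in these values was not tested.

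Signs of other cells also differed between the libraries. Of 14 myeloid markers, 13 were tested and all 13 had a fold change above 0, and the list summed to 1710 and 1250 CPM in KO libraries and 881 and 625 CPM in WT libraries, most of it from Itgax, which NK cells also express. Itgax, S100a8, S100a9, Mpo and Elane, 5 of the 14, were higher in both KO libraries than in both WT libraries, as were 9.64% of all genes. S100a8 stood at 118 and 22.4 CPM in KO libraries, against 9.94 and 0.687 CPM in WT libraries. Elane stood at 6.24 and 0.915 CPM in KO libraries, against 0.0615 and 0 CPM in WT libraries. Of 9 B cell markers, whose sums were 450 and 225 CPM in KO libraries and 248 and 174 CPM in WT libraries, 7 were lower in both libraries numbered 2 than in both numbered 1, as were 7 of 13 T cell markers (352 and 190 CPM in KO, 330 and 253 CPM in WT) and 9 of the myeloid markers, an arrangement of 33.2% of all genes. Most of the T cell sums came from Trbc1 (84.7 and 56.0 CPM in KO, 92.5 and 64.5 CPM in WT) and Trbc2 (120 and 65.0 CPM in KO, 121 and 96.9 CPM in WT). Cd3d, Cd3e and Cd3g stood at 5.42 CPM or less in every library, and Cd4, Cd8a and Cd8b1 at 0.892 CPM or less. Among the T cell markers Trac stood at 94.0 and 36.1 CPM in KO libraries, against 5.88 and 8.30 CPM in WT libraries. It was the 1 T cell marker higher in both KO libraries than in both WT libraries. Of the 12 T cell markers tested, 4 had a log2 fold change above 0. Icos (log2 fold change -1.79) and Cd28 (-1.29) were lower in both KO libraries than in both WT libraries. Markers of other innate lymphoid cells summed to 59.6 and 119 CPM in KO libraries, against 123 and 140 CPM in WT libraries. Of the 8 tested, 2 had a log2 fold change above 0. Kit stood at 5.11 and 7.21 CPM in KO libraries, against 50.3 and 21.9 CPM in WT libraries. Il7r stood at 0.648 and 1.08 CPM in KO libraries, against 9.38 and 5.80 CPM in WT libraries. Gata3 stood at 29.8 and 87.7 CPM in KO libraries, against 46.6 and 82.8 CPM in WT libraries. Those of stroma and endothelium summed to 86.7 and 122 CPM in KO libraries, against 70.5 and 90.9 CPM in WT libraries, nearly all from Pecam1. Erythroid markers summed to 265 and 157 CPM in KO libraries and 48.3 and 37.1 CPM in WT libraries. Platelet markers, of interest because platelets are rich in TGF-beta, summed to 92.9 and 76.3 CPM in KO libraries and 70.9 and 55.3 CPM in WT libraries, nearly all from Gp1bb (91.1 and 74.5 CPM in KO, 68.5 and 53.6 CPM in WT), with Pf4 at 1 to 6 counts in each library. The part of these cells in the members' values was not tested. In bulk RNA, fewer cells of a type and less RNA per cell cannot be told apart.

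**Figure D3:**
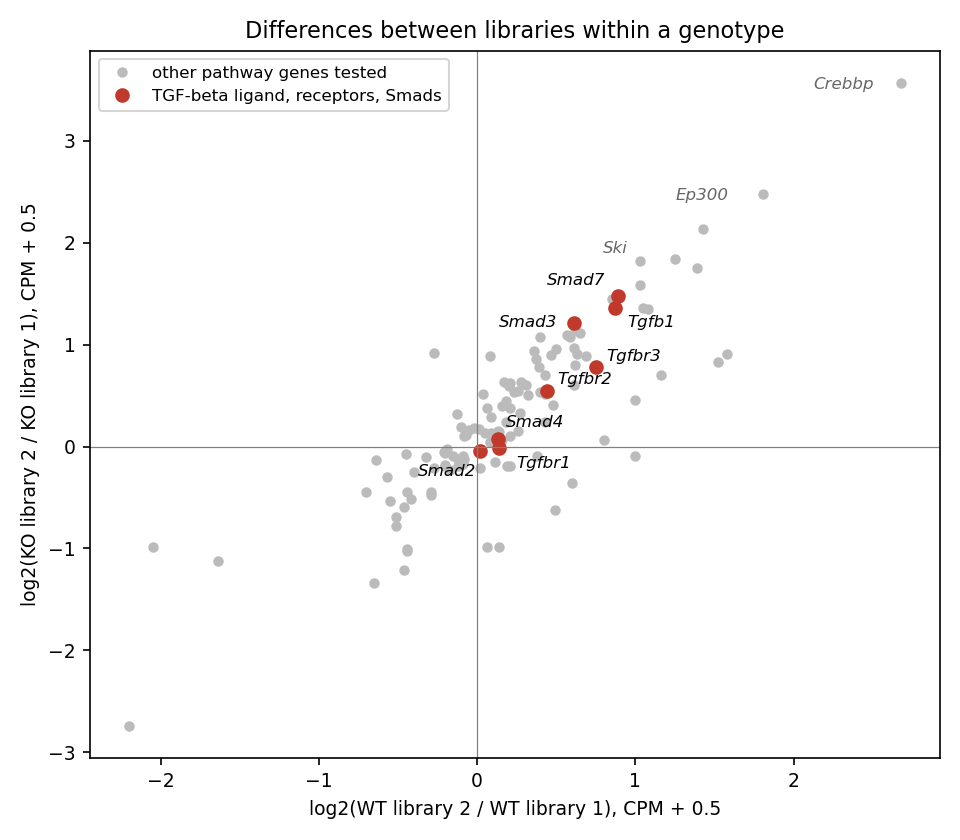
Log2 ratio of library 2 to library 1 in KO (vertical axis) against that in WT (horizontal axis), on CPM plus 0.5, for the members (red) and the 112 other pathway genes tested (grey). Tgfb1, Smad3 and Smad7 lie well above 0 on both axes, Smad2, Smad4 and Tgfbr1 sit near 0, and the coactivator genes Crebbp and Ep300 lie farthest to the upper right.

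Beyond the members, 9 lists of pathway genes held 145 genes, of which 112 were tested. With adjustment over all genes, 0 of the 112 passed in edgeR with genotype only and 0 in DESeq2. At an unadjusted p under 0.05 edgeR held 2 higher and 2 lower in KO, where it held 1.70% and 1.14% of all genes. Calls below are those of the genotype-only fits. A fit with the replicate number as a block called 5 of the 112, which are given in the last section.

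The other ligands were mostly at or near background: 14 of 17 were not tested, with at most 12 counts in any library, among them Tgfb2 with 0 and 2 counts in KO libraries and 3 and 4 counts in WT libraries. Tgfb3, the third TGF-beta isoform, was lower per length than Tgfb1 by 35.7- and 61.3-fold in KO libraries and 16.6- and 25.9-fold in WT libraries. Tgfb3 stood at 4.98 and 7.46 CPM in KO libraries, against 13.8 and 16.2 CPM in WT libraries, with no overlap of the groups. Its log2 fold change was -1.27 (SE 0.31, edgeR unadjusted p = 0.0114, adjusted p = 1), and the DESeq2 adjusted p was 0.233. It therefore did not pass, although its difference was larger than the spread within either genotype (SD 1.76 CPM in KO and 1.73 CPM in WT). Gdf11, a growth factor of the superfamily, had a log2 fold change of 0.09, and Lefty1, an inhibitor of Nodal, of -0.10.

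Of 18 genes that store, release or activate the latent ligand, 11 were tested, 5 above and 6 below 0, with a median log2 fold change of -0.13. The integrin chains Itgb5 and Itgb3, partners of the alpha-v chain that binds latent TGF-beta, had values of -0.86 (SE 0.39) and -0.44 (SE 0.30) and did not pass. Mmp9, a matrix protease, had 0.99 (SE 1.03), with 0.18 without WT library 2, 0.32 without KO library 1 and 3.07 without WT library 1, and Itgb1, the most highly expressed of the list, had -0.13. Itgb6 and Itgb8, the integrin chains best known for activating TGF-beta, had at most 1 count in any library.

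Of 12 other receptors of the superfamily, 8 were tested, 2 above and 6 below 0, with a median log2 fold change of -0.52, where all genes had -0.01. This median rested partly on genes with few counts. Eng had -0.47 (SE 1.22) from 16 and 1 counts in KO libraries, against 12 and 16 counts in WT libraries. Acvrl1 had 0.91 (SE 1.05) from 41 and 9 counts in KO libraries, against 21 and 9 counts in WT libraries. Leaving out KO library 2 gave a median of -0.16, and leaving out WT library 2 gave -0.18. None passed in edgeR (unadjusted p under 0.05 in 0 of 8) or in DESeq2. Acvr1b, an activin type I receptor, stood at 14.1 and 17.8 CPM in KO libraries, against 21.4 and 25.9 CPM in WT libraries (log2 fold change -0.57, SE 0.25). Its groups did not overlap. Bmpr1a, a BMP receptor, had -0.92 (SE 0.44) and Acvr1, another type I receptor, 0.98 (SE 0.50), both at about 2 CPM or less in every library.

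The Smads of the BMP branch, Smad1 and Smad5, had log2 fold changes of -0.29 (SE 0.25) and 0.19 (SE 0.26). Smad6, an inhibitory Smad, had 0 and 0 counts in KO libraries and 0 and 3 counts in WT libraries. Of 27 regulators of Smads and receptors, 25 were tested, 8 above and 17 below 0 (median -0.09). The ubiquitin ligase genes Stub1 and Wwp1 had -0.44 (SE 0.21) and -0.55 (SE 0.29), and the phosphatase gene Ctdsp1, the most highly expressed of them, -0.29 (SE 0.29). None passed.

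Of 16 nuclear partners of Smads, 15 were tested, 5 above and 10 below 0 (median -0.10), and 13 of the 15 were higher in both libraries numbered 2, as were 34.6% of all genes. Foxo3, Sp1 and Jun had log2 fold changes of -0.48 (SE 0.49), -0.29 (SE 0.34) and -0.30 (SE 0.40), and Junb, the most highly expressed, 0.04. Named after their values were seen, the coactivator genes Crebbp and Ep300 and the corepressor gene Ski differed more between libraries than any member did. Crebbp stood at 5.83 and 74.8 CPM in KO libraries 1 and 2, against 9.63 and 64.5 CPM in WT libraries 1 and 2. Ep300 stood at 39.1 and 220 CPM in KO libraries, against 53.2 and 188 CPM in WT libraries. Ski stood at 83.0 and 295 CPM in KO libraries, against 142 and 290 CPM in WT libraries. All 16 genes of the branch that runs without Smads were tested, 5 above and 11 below 0 (median -0.07), with Map2k6 at -0.23, Tab1 at -0.36, Tab2 at -0.19 and the most highly expressed, Rhoa, at -0.07, and none passed.

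Of 24 genes that TGF-beta is known to induce in NK or other cells, 21 were tested, 10 above and 11 below 0 (median 0.00). Nt5e, which encodes the ectonucleotidase CD73, stood at 25.5 and 26.5 CPM in KO libraries, against 7.69 and 13.8 CPM in WT libraries (log2 fold change 1.28, SE 0.35, edgeR unadjusted p = 0.0181, adjusted p = 1). Cd69, an activation and residency marker, stood at 42.1 and 38.4 CPM in KO libraries, against 25.3 and 16.1 CPM in WT libraries (0.96, SE 0.30, edgeR unadjusted p = 0.0292, adjusted p = 1). Cdkn1c, a cell cycle inhibitor, stood at 2.90 and 2.69 CPM in KO libraries, against 5.63 and 7.49 CPM in WT libraries (-1.23, SE 0.32, edgeR unadjusted p = 0.0148, adjusted p = 1). The groups of these 3 genes did not overlap, but in opposite directions, and none passed in DESeq2. Cd9, a tetraspanin and the most highly expressed of the list, had -0.26.

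Of 16 genes that TGF-beta is known to repress, 15 were tested, 8 above and 7 below 0 (median 0.02). Cx3cr1, a chemokine receptor of mature NK cells, stood at 551 and 758 CPM in KO libraries, against 235 and 471 CPM in WT libraries (log2 fold change 0.89, SE 0.41, edgeR adjusted p = 1). The granzyme genes Gzmb and Gzma had log2 fold changes of 0.47 (SE 0.21) and 0.12 (SE 0.37), and the interferon gamma gene Ifng 0.30 (SE 0.25). None of the 15 passed.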

How the data were processed

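The authors deposited raw counts per gene (Entrez numbers, gene length beside them). The submitters' processing notes name featureCounts and mm10. RNA came from sorted cells through a TruSeq preparation and paired-end sequencing, per the labels' protocols. The sources used here do not give the aligner, versions or strand setting. The series table and single-sample files held the same counts, and the libraries were not copies of each other (chi-square per degree of freedom of counts 266 between KO and 137 between WT libraries). Symbols were matched for 25275 of 26611 genes (95.0%) in RefSeq GRCm38.p6. Genes were kept with filterByExpr (minimum count 10). The test was edgeR 4.0.16's quasi-likelihood F-test (R 4.3.3, TMM, robust, genotype only), two-sided, with Benjamini-Hochberg adjustment over 12723 genes and a threshold of 0.05. Each SE is the fold change divided by the root of F. A count of 0 allows up to 0.0764 to 0.102 CPM (3 counts, counting error only). DESeq2 1.42.0, limma 3.58.1 voom, other scalings, no filter, a replicate block and leaving out each library were alternatives. The genotype-only fits of edgeR, DESeq2 and voom were first tried on simulated data that held no effect of the replicate number. The other alternatives were not tried on simulated data. Members and lists were chosen with earlier results of these data known. Named were all members, and in each list genes past a threshold, the 3 smallest p and the most highly expressed by FPKM. Crebbp, Ep300, Ski, Cxcr3, Eng, Acvrl1 and genes at or near 0 counts were named besides, chosen after their values were seen.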

Additional observations from a re-analysis of the deposited data

How the results depend on the processing

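No member of the set passed an adjusted p of 0.05 under any alternative run. The count over all genes, 0 in edgeR, was 35 with no filter on low counts, 71 with DESeq2, 221 with the replicate number as a block, and 0 to 53 with 1 library left out (33 without KO library 1, 53 without KO library 2). The numbers pair no samples in the labels, but the deviations from the genotype means correlated at 0.798 across genes between libraries of the same number. With the replicate block 5 of the 112 other pathway genes passed, Tgfb3 (log2 fold change -1.29), Cxcr3 (-0.69), Nt5e (1.32), Cd69 (0.99) and Cx3cr1 (0.96), at edgeR adjusted p of 0.0105 to 0.0257. Crebbp (0.12) and Ep300 (0.11) turned to -0.24 and -0.10 with voom and to -0.19 and -0.10 with the block. With 1 library left out the median over the members ran from -0.24 to 0.27 and over the nuclear partners from -0.84 to 0.20. Log2 fold changes that turned in these fits ranged from -0.83 to 0.50 (Tgfb1), -0.02 to 0.14 (Tgfbr1), -0.36 to 0.16 (Tgfbr2), -0.01 to 0.05 (Smad2), -0.81 to 0.38 (Smad3), -1.04 to 0.44 (Smad7), -0.02 to 0.44 (Smad5), -0.50 to 0.57 (Gdf11), -0.60 to 0.69 (Lefty1), -1.35 to 0.45 (Ski), -0.70 to 0.05 (Sp1), -0.73 to 0.06 (Jun), -0.01 to 0.09 (Junb), -0.95 to 0.23 (Foxo3), -1.59 to 1.29 (Ep300), -2.63 to 2.07 (Crebbp), -0.90 to 0.04 (Tab1), -0.24 to 0.14 (Rhoa) and -0.33 to 0.49 (Gzma). None of these was called. A fit that leaves 1 library in a genotype assumes it varies like the other genotype, and the causes of these changes were not tested. The remaining alternatives, DESeq2 size factors and library size only, changed no call or direction. The 95% intervals of the members came from the genotype-only edgeR fit with 2 libraries per genotype. They allowed folds from 0.654 to 1.31 (Smad4) at the narrowest and from 0.295 to 2.83 (Smad7) at the widest. In that fit, differences between the replicate numbers count as spread, even where both genotypes share them.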
